A study of Homo sapiens with 2 samples.

Results

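The widest NRF-1 peaks were the 904 of 17850 peaks on chromosomes 1 to 22 and X of the siControl list that spanned 1300 bp or more. They were chosen by their measured width in the siControl cells, so that their width, and the fold enrichment and q of the same calls, are given as a description with no test. NRF-1 occupancy was profiled by ChIPmentation, a chromatin immunoprecipitation in which a transposase adds the sequencing adapters, in U251 cells, an established human glioblastoma cell line. The cells received either a control siRNA (siControl) or an siRNA against AATF (siAATF), and 1 peak list per condition was analysed, so nothing below has a replicate check and no p-value is given between conditions. No input or IgG library was named, sequencing depth was unknown, and the design text of the series names U138 cells where the sample labels name U251. Intervals in brackets are exact 95% binomial intervals, which cover counting error over peaks only, and neighbouring peaks are not replicates of a condition.

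NRF-1, nuclear respiratory factor 1, is a transcription factor that binds a GC-rich palindrome as a homodimer, mostly at CpG-island promoters, and is known for driving genes of mitochondrial respiration along with many housekeeping genes. AATF is a nuclear protein that takes part in transcription, ribosome biogenesis and the response to DNA damage. A broad peak call joins neighbouring enriched stretches into 1 region, and the fold enrichment and −log10 q that MACS2 writes for it are means over the whole region, so they depend on the length over which they are averaged.

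The sequences shown first are those around the NRF-1 core, GCGCATGCGC, because the place of its matches sets wide peaks apart from narrower ones below. Per kb, its matches were fewer than in the peaks next below them in width, but not fewer than over all peaks. The core reads the same on both strands and was searched with up to 1 mismatch. Windows are shown for the wide peaks with most cores per kb and for U2AF2, one of the widest, with 20 bases on each side of the core, on the plus strand of GRCh37 and only where the window lay outside annotated exons. Capitals mark the core match, and overlapping matches were counted separately. In the peak of HNRNPL, an RNA-binding splicing factor, 4 such windows in the gene's introns held 5 of its 6 cores and spread over more than 1 kb:
HNRNPL, chr19:39340058-39340107: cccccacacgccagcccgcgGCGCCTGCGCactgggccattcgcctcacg
HNRNPL, chr19:39340130-39340185: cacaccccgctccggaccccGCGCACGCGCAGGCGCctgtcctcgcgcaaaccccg
HNRNPL, chr19:39340220-39340269: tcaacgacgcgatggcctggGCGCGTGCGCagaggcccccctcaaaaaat
HNRNPL, chr19:39341222-39341271: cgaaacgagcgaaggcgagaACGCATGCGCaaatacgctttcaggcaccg
U2AF2, which encodes the large subunit of the factor that recognises the polypyrimidine tract at 3′ splice sites, had 4 cores, of which 2 lay upstream of the gene and 1 in an intron in windows free of exons:
U2AF2, chr19:56165222-56165271: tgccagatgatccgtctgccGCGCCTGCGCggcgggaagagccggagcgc
U2AF2, chr19:56165338-56165387: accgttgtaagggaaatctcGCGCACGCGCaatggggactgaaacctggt
U2AF2, chr19:56166712-56166761: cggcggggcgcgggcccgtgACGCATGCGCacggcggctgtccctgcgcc
WDR18, a WD-repeat protein of ribosome biogenesis, had 4 cores, 1 upstream of the gene and 3 in its introns:
WDR18, chr19:984217-984266: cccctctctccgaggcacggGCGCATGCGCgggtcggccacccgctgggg
WDR18, chr19:984679-984785: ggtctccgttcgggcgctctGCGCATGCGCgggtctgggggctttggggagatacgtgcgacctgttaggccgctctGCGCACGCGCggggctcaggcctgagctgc
WDR18, chr19:984821-984870: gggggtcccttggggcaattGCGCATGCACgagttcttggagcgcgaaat
A peak at chr19:18058242-18059582, outside annotated genes and 2520 bp from the nearest start, that of the potassium channel gene KCNN1, had 4 cores:
Near KCNN1, chr19:18058646-18058695: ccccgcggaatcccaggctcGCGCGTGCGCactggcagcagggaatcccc
Near KCNN1, chr19:18058793-18058842: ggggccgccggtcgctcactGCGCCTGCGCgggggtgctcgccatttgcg
Near KCNN1, chr19:18058873-18058922: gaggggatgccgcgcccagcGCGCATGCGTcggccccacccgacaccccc
Near KCNN1, chr19:18059148-18059197: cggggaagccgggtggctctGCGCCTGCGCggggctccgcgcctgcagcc
The highest density of cores, 4.61 per kb, was at the lncRNA genes LINC03015 and LINC03014 on chromosome 7, where 6 cores were found and 1 window lay outside exons, in a LINC03015 intron:
LINC03015, chr7:149230-149279: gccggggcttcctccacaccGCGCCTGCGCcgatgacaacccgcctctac

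The wide peaks made up 5.06% of the siControl peaks and 10.7% of the length they covered, 1.37 of 12.81 Mb. Their median width was 1454 bp, against 702 bp over all peaks, and 677 of them spanned 1300 to 1599 bp, 192 spanned 1600 to 1999 bp and 35 spanned 2000 bp or more. The list had no gap at the threshold. The narrowest members were CADM2 and EIF2AK3 at 1300 bp and the shared ATP5ME and MYL5 promoter at 1301 bp, and EGFR, SOCS2 and a region on chromosome 15 with no start stood just outside at 1299 bp. Wide peaks were found on every chromosome counted, and their share of a chromosome's peaks was highest on chromosome 21, at 9.55% (5.85 to 14.5, 19 of 199 peaks).

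**Figure D1:**
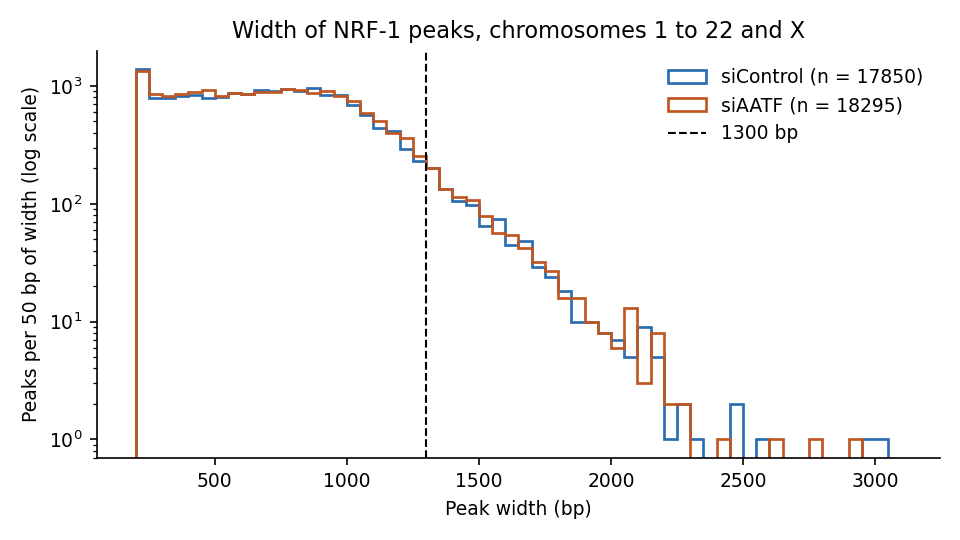
Number of NRF-1 peaks per 50 bp of width (y axis, log scale) against peak width in bp (x axis) for the siControl and siAATF lists, with the 1300 bp limit dashed. Both lists thin out steadily across the limit, with 904 siControl and 937 siAATF peaks to its right.

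The widest peaks were not the highest ones. The median fold enrichment of the wide peaks was 5.23 (5.14 to 5.32), at the 40.8th percentile of the siControl list, whereas peaks of 1000 to 1299 bp had a median of 6.77 and all peaks 5.83. Only 4 of the 904 were in the top 25% of the list by fold enrichment. By −log10 q they stood higher, with a median of 17.7 (16.3 to 19.5) at the 64.5th percentile, and 320 of them (35.4%, 32.3 to 38.6) were in the top 25%. That was again below peaks of 1000 to 1299 bp, which had a median −log10 q of 35.6 and 54.6% in the top 25%. Both values went down further with width, so that the 35 peaks of 2000 bp or more had a median fold enrichment of 4.25 and a median −log10 q of 14.8. Few were weak calls, with 847 of 904 at a −log10 q of 5 or more.

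**Figure D2:**
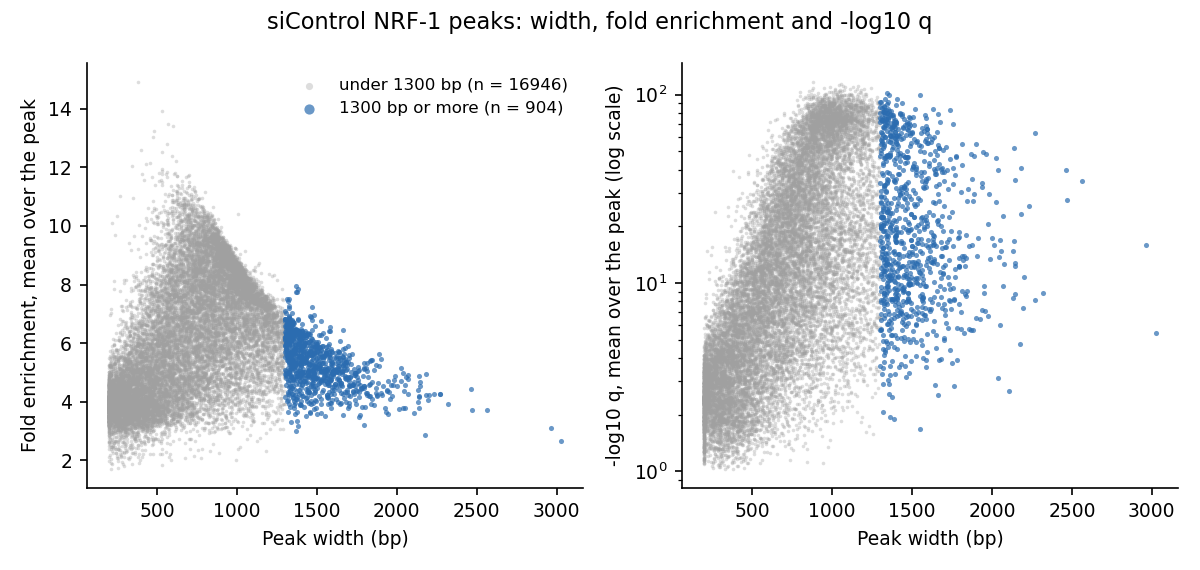
Fold enrichment (left, y axis) and −log10 q (right, y axis, log scale) of each siControl peak against its width in bp (x axes), with the 904 peaks of 1300 bp or more in blue and the other 16946 in grey. The highest folds belong to peaks under 1300 bp, and the wide peaks fall from a median of 5.23 over all of them to 4.25 at 2000 bp or more.

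The wide peaks highest by fold enrichment were at genes of varied function, and 3 of the 5 lowest were at no start. SMAD5, a transcription factor of BMP signalling, had the highest fold of the wide peaks, 7.94, and was followed by RAB1B, a small GTPase of transport from the endoplasmic reticulum, at 7.84. CBX6, a chromobox protein of Polycomb complexes, PPTC7, a mitochondrial phosphatase, and the shared promoter of KARS1 and TERF2IP, a lysyl-tRNA synthetase and a telomere protein, had 7.75, 7.73 and 7.51. These peaks were all near the limit of the set, between 1311 and 1380 bp. The lowest fold, 2.68, was that of PDGFA, which encodes a growth factor chain active in glioma and was the widest peak of all at 3025 bp. ZMIZ1, a transcriptional coregulator, had 2.87 over 2176 bp, and the peaks without a start had 2.99 to 3.17.

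Most wide peaks covered the start of a protein-coding gene, at a share like that of the peaks next below them in width. A coding start lay in 803 of 904 (88.8%, 86.6 to 90.8), against 89.2% of peaks of 1000 to 1299 bp and 59.7% of all siControl peaks. Starts of 2 or more coding genes lay in 108 wide peaks (11.9%, 9.90 to 14.2), against 12.8% and 7.04%, and 7 of these held 3 coding genes. The widest with 3 were those of TMEM276 and the kinesin gene KIFC2 (1811 bp), of NDUFA11 and VMAC (1503 bp), of SMIM7 and TMEM38A (1443 bp), of CCDC92, ZNF664 and RFLNA (1348 bp), and of WDR27 and C6orf120 (1318 bp), where the annotation counts a gene without a symbol at all but that of CCDC92. In 95 of the 108 the genes pointed away from each other. An lncRNA start was in 256 wide peaks (28.3%, 25.4 to 31.4), and 219 of them held a coding start as well. It was in 23.3% of peaks of 1000 to 1299 bp and 15.3% of all peaks. Longer peaks cover more sequence, and these shares were not set against length. Of the 101 wide peaks without a coding start, 37 covered an lncRNA start, 18 another kind of start and 46 none.

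The median number of transcript starts was the same in wide peaks as in the class below them. Wide peaks covered a median of 4 distinct starts, the same as peaks of 1000 to 1299 bp, and 150 of them (16.6%, 14.2 to 19.2) covered 10 or more, against 16.1%. Within the wide peaks this share was 15.1% (12.5 to 18.0) at 1300 to 1599 bp, 20.8% (15.3 to 27.3) at 1600 to 1999 bp and 22.9% (10.4 to 40.1) at 2000 bp or more, with intervals that overlap. Per kb of sequence they held 3.66 starts, against 4.89 in peaks of 1000 to 1299 bp and 4.83 over all peaks. The outermost starts of a wide peak were a median of 541 bp apart (493 to 592), against 278 bp (256 to 300). That distance cannot exceed the width of the peak, which the rule chose, so it is given as a description. The most starts, 70, were those of the lncRNA genes LINC00662 and LINC02987, and FTX, an lncRNA of the X-inactivation centre, had 39. P4HB, the beta subunit of prolyl 4-hydroxylase, and the shared promoter of SEPTIN2 and HDLBP, a cytoskeletal GTPase and an RNA-binding protein, had 35 each, and the shared promoter of SETD5, a SET-domain protein, and the lncRNA gene THUMPD3-AS1 had 31. The count depends on the annotation, and with transcripts tagged basic alone the median was 2.

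The 10 widest peaks showed several layouts. PDGFA reached 360 bp upstream and 2664 bp downstream of its canonical start, and ANP32B, an acidic nuclear phosphoprotein, and ACVR2B, an activin receptor, likewise lay mostly downstream, by 1931 and 1945 bp. KMT2B, a histone H3 lysine 4 methyltransferase, and U2AF2 lay mostly upstream of the canonical start, with 1759 and 1531 bp before it. U2AF2 had 5 starts spread over 963 bp, so its layout depends on the start taken. Its cores called upstream above lay before the first of them. MEPCE and ZCWPW1, the 7SK RNA capping enzyme and a histone reader, shared a peak of 2564 bp with 4 cores, and MBOAT7 and TSEN34, a lipid acyltransferase and a tRNA splicing endonuclease subunit, shared one of 2472 bp with 18 starts and no core. The histone genes H2AC25 and H2BC26 shared one of 2272 bp. PIM3, a serine/threonine kinase, had 2464 bp. The remaining one, at chr6:58776395-58779359, covered no start.

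Wide peaks lay more on the downstream side of the start than upstream. The 633 wide peaks over 1 coding gene with a canonical start inside reached a median of 572 bp upstream (537 to 613) and 897 bp downstream (868 to 936), and 411 of them (64.9%, 61.1 to 68.7) reached farther downstream. Peaks of 1000 to 1299 bp reached 521.5 bp upstream and 581.5 bp downstream, with 56.3% (54.0 to 58.6) farther downstream. Most of the difference in median reach between the 2 classes was thus on the side of the transcribed gene. The difference between the sides was larger in peaks without a core, which reached 522 bp upstream and 941 bp downstream, with 69.4% (64.9 to 73.7) farther downstream. In the 192 with a core the reaches were 683.5 and 781.5 bp and the share was 54.7% (47.4 to 61.9). Among peaks of 1000 to 1299 bp, the shares were 64.0% (61.0 to 66.9) without and 45.9% (42.4 to 49.4) with a core. Of the sequence under wide peaks, 45.1% was exon, 37.8% intron and 17.1% outside genes.

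**Figure D3:**
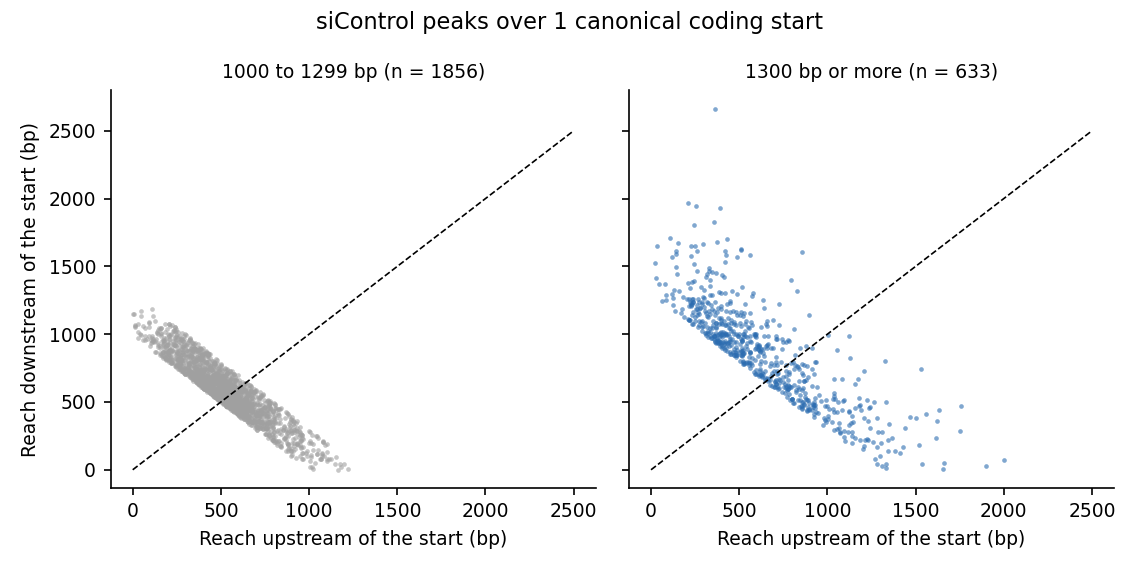
Reach downstream (y axes, bp) against reach upstream (x axes, bp) of the canonical start, for siControl peaks over 1 such coding start of 1000 to 1299 bp (left) and of 1300 bp or more (right), with equal reach dashed. More of the wide peaks lie above the line, 411 of 633, than of the narrower class, 1045 of 1856.

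With up to 1 mismatch, the core occurred in 314 wide peaks (34.7%, 31.6 to 37.9), and 61 (6.75%, 5.20 to 8.58) held it exactly. Peaks of 1000 to 1299 bp had it more often, in 41.9% (40.0 to 43.8), and all peaks in 17.4%. A control word of the same base composition, CGGCATGCCG, searched in the same way, was in 7.19% of the wide peaks. Since longer regions hold more of any word, the 700 bp around each midpoint were also searched, and there the core was in 24.7% (21.9 to 27.6) of wide peaks, 41.5% (39.6 to 43.4) of peaks of 1000 to 1299 bp and 17.0% of all peaks. Per kb, wide peaks held 0.353 cores and 0.0489 control words, against 0.554 and 0.0436 in peaks of 1000 to 1299 bp. In that central window the share went from 28.2% at 1300 to 1599 bp to 15.6% at 1600 to 1999 bp and 5.71% (0.70 to 19.2, 2 of 35) at 2000 bp or more. Anywhere in the peak, the core was in 34.6%, 34.9% and 37.1% (21.5 to 55.1) of the same classes, with no such fall.

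**Figure D4:**
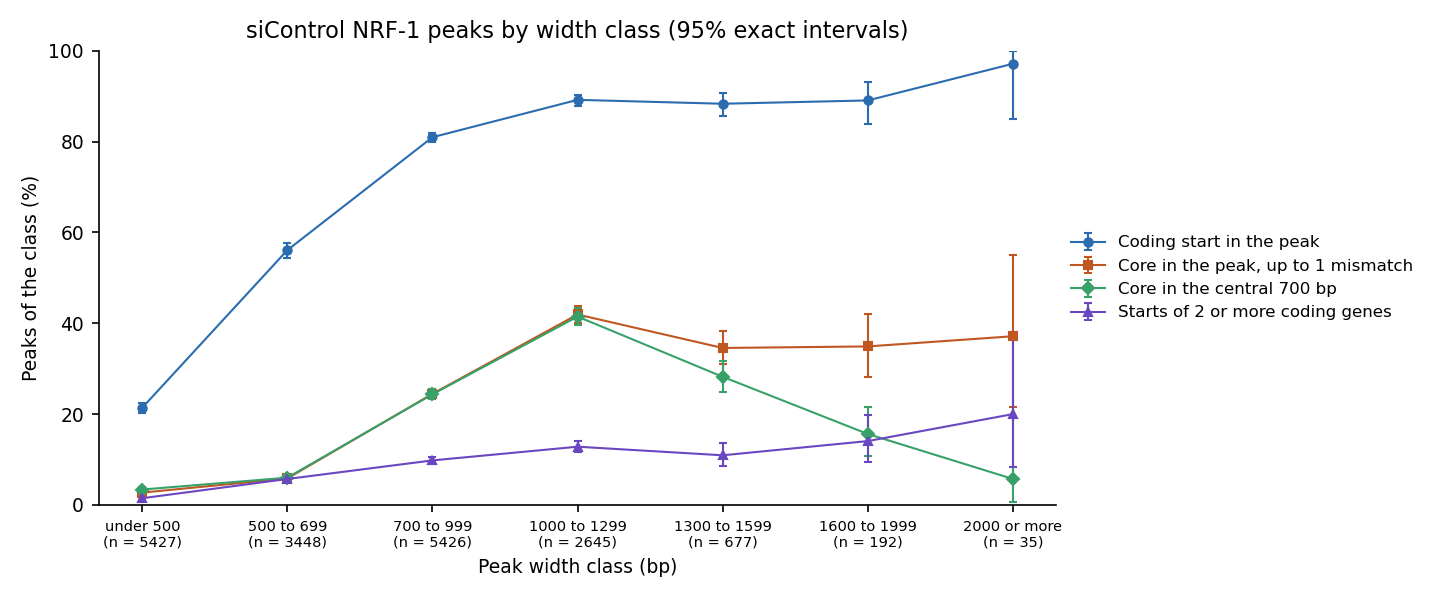
Share of siControl peaks (y axis, %) in 7 classes of width (x axis, bp) that hold a coding start, starts of 2 or more coding genes, a core with up to 1 mismatch anywhere, or a core in the 700 bp around the midpoint, with exact 95% intervals as bars. The coding start share lies between 88.3% and 89.2% in the classes from 1000 to 1999 bp and at 97.1% (85.1 to 99.9) in the 35 peaks of 2000 bp or more. The core in the centre falls from 41.5% at 1000 to 1299 bp to 5.71% at 2000 bp or more. The core anywhere in the peak lies between 34.6% and 37.1% in the classes from 1300 bp upward.

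In wide peaks the core lay off centre. The 484 cores were a median of 256 bp from the peak's midpoint, against 80 bp for the 1640 cores of peaks of 1000 to 1299 bp, and as a share of the distance from midpoint to edge the medians were 35.1% and 14.5%. Of the cores, 68.4% lay within 350 bp of the midpoint, against 97.7%. The nearest core was within 200 bp of the canonical start in 104 of 192 wide peaks (54.2%, 46.8 to 61.4), against 74.8% (71.7 to 77.8) in peaks of 1000 to 1299 bp. The nearest core lay upstream of that start in 128 of the 192 and downstream in 61. Its median position over the 192 was -41 bp, close to the -45 bp of the narrower class. In 105 wide peaks 2 or more cores were found. The outermost were a median of 320 bp apart (up to 1490 bp), against 106 bp in peaks of 1000 to 1299 bp. The width of the peak limits that distance.

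Wide peaks with a core and without one had unlike q. With a core, the median −log10 q was 53.2 (48.5 to 56.5) and the median fold 5.75, and 79.0% were in the top 25% of the list by q. Without a core, the medians were 12.0 (11.1 to 12.7) and 4.99, and 12.2% were in the top 25%. The widths were alike, with medians of 1442 and 1460.5 bp. A core was most frequent over 2 or more coding genes, in 64 of 108 peaks (59.3%, 49.4 to 68.6), against 30.2% (26.8 to 33.8) over 1 coding gene and 34.8% (21.4 to 50.3) over no start. In base composition the wide peaks, at a median GC content of 70.2% and a CpG observed to expected ratio of 0.845, were close to peaks of 1000 to 1299 bp, at 69.0% and 0.840.

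The genes under wide peaks numbered 913, which is 4.62% of all coding genes and 8.11% of the 11261 with a start under any siControl peak. Against these shares, the highest lists reported here were translation initiation and elongation factors, and AP-1 and immediate-early factors. The former had 10 of 44 genes (22.7%, 11.5 to 37.8). EIF5B, a GTPase of subunit joining that shares its promoter with TXNDC9, was the widest of them at 2028 bp, with 3 cores. EIF5A, which helps ribosomes through proline stretches, had 1383 bp and a −log10 q of 77.8, and EEF1D, an exchange factor of elongation factor 1, shared a peak of 1340 bp and 27 starts with TIGD5. EIF1AD, EIF2B4, EIF3B, EIF4A1, EIF4B, EIF4E, a cap-binding protein, and EIF5 were the others, and 4 of the 10 peaks held a core. By the siAATF list, 6 of the 44 genes were under a peak of 1300 bp or more, and 954 of all 19748 coding genes were.

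Of the 18 AP-1 and immediate-early factors, 5 (27.8%, 9.70 to 53.5) were under wide peaks, 4 of them without a core. JUND had 2146 bp in siControl and was covered by siAATF peaks of 912 and 706 bp. JUN, the classic partner of FOS, had 1566 bp in siControl against 1151 bp, and FOSL1 had 1421 bp against 749 bp. EGR1, a zinc finger factor rapidly induced on stimulation, had 1660 bp against 1731 bp, and IER5 had 1389 bp against 1550 bp. Width was thus lower in siAATF at 3 of the 5 and higher at 2, and by the siAATF list 2 of the 18 genes were under a peak of 1300 bp or more.

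Splicing factors had 5 of 48 genes (10.4%, 3.47 to 22.7), namely U2AF2 at 2272 bp, HNRNPA1 at 1868 bp with CBX5, HNRNPA2B1 at 1636 bp with CBX3, HNRNPL at 1586 bp and SRSF1 at 1585 bp. All 5 of these peaks held a core, between 1 and 6 of them. HNRNPA1 and HNRNPA2B1 encode nuclear RNA-binding proteins, and both of their partners, CBX5 and CBX3, encode heterochromatin protein 1 family members. The OXPHOS subunits, the genes NRF-1 is best known for, had 5 of 78 (6.41%, 2.11 to 14.3). These were NDUFB11, NDUFA11 and NDUFA3 of complex I, at 1510, 1503 and 1395 bp, and ATP5PD and ATP5ME of ATP synthase, at 1467 and 1301 bp, and 71 of the 78 were under some siControl peak. Factors of mitochondrial transcription, replication and import had 1 of 26, the import channel TOMM40 at 1315 bp.

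The share of all coding genes lay within the intervals of the splicing, OXPHOS and import lists and of every list that follows. DNA replication and repair had 5 of 67 (7.46%, 2.47 to 16.6), with the helicase subunits MCM4 and MCM7, the polymerase POLE, the mismatch repair gene MSH6 and the replication gene GINS1. Mitochondrial ribosomal proteins had 2 of 78 (MRPS2 and MRPS6), and proteasome and chaperone genes 2 of 42 (PSMA7 and HSPH1). Histone genes had 3 of 69, the divergent pair H2AC25 and H2BC26 and the single gene H2BC21, and 25 of the 69 were under any siControl peak. Genes named ZNF had 18 of 503 (3.58%, 2.13 to 5.60), with ZNF367, ZNF687 and ZNF787 the widest at 2042, 1958 and 1737 bp. No HOX gene of 39 and no snoRNA host gene of 32 was under a wide peak, which allows shares of up to 9.02% and 10.9% by the upper bound of the exact interval. These bounds are over all genes of each list, and only 10 HOX genes and 25 snoRNA host genes were under any siControl peak. By the siAATF list the genes under a peak of 1300 bp or more were 7 for splicing, 7 for DNA replication and repair, 25 for ZNF genes, 4 for OXPHOS, 1 for snoRNA hosts and 0 for HOX, and the same number as in siControl for import factors, mitochondrial ribosomal proteins, proteasome and chaperone genes and histones.

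In the siAATF list the wide peaks were almost all found again, and most were still wide. A siAATF peak overlapped 903 of the 904, against 99.8% of peaks of 1000 to 1299 bp and 88.7% of all siControl peaks. The exception was a region at chr1:2627529-2629291, 1763 bp long with no start and a −log10 q of 2.83. The widest overlapping siAATF peak spanned 1300 bp or more in 659 (72.9%, 69.9 to 75.8), against 5.51% of all siControl peaks, and 1000 bp or more in 829. Among the 18295 siAATF peaks, the counterparts had a median width of 1426 bp and a median width rank of 545, with the lowest at rank 15357. Those of 2000 bp or more in siControl had a siAATF peak of 1300 bp or more in 30 of 35.

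Counterparts were on the whole slightly narrower, and the same held for the reverse choice. The median width difference, siAATF minus siControl, was -19 bp (-29 to -11), with 521 narrower, 376 wider and 6 of equal width, and 580 of 903 differed by 100 bp or less. Over all 15838 shared siControl peaks the median difference was 15.5 bp. When the 937 siAATF peaks of 1300 bp or more were chosen in place of the siControl ones, the siControl counterparts were the narrower ones, with a median difference, siControl minus siAATF, of -44 bp (-49 to -34) and 654 narrower, and 659 of 937 (70.3%, 67.3 to 73.2) were wide in siControl. A set chosen for width in either list was therefore narrower in the other.

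Large losses of width were few. Taking the widest siAATF peak alone, a width lower by 1.5-fold or more was found in 79 wide peaks (8.75%), against 4.82% of all shared siControl peaks. A width higher by 1.5-fold or more was found in none, against 6.47%. Since the peaks were chosen for width in siControl, no direction is read from these 2 counts. SLC38A2, an amino acid transporter, had 1796 bp in siControl and siAATF peaks of 377 and 331 bp. ESYT1, a tether of the endoplasmic reticulum to the plasma membrane, had 1736 bp and siAATF peaks of 451 and 440 bp. NTN4, a netrin of basement membranes, had 1736 bp and a siAATF peak of 573 bp. LBH, a transcription cofactor of limb and heart development, had 1780 bp and siAATF peaks of 623 and 519 bp. JUND was the other one among the 5 largest losses, and 2 siAATF peaks covered each of these peaks other than that of NTN4. The largest gains were those of EPB41L4A, from 1385 to 1992 bp, and the lncRNA gene DLEU2, from 1505 to 2108 bp, followed by EOLA2 (477 bp), KLHL21, an adaptor of a ubiquitin ligase (413 bp), and PCGF5, a Polycomb ring finger protein (396 bp).

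The downstream edge drew in slightly more often than the upstream edge. In the 633 wide peaks over 1 canonical coding start the downstream edge moved by a median of -14 bp and the upstream edge by 3 bp, negative values being moves inward, and the downstream edge moved further inward, or less outward, in 366 (57.8%, 53.9 to 61.7). The same share was 57.9% (55.7 to 60.2) in peaks of 1000 to 1299 bp. The widest siAATF peak still covered the canonical start in 610 of the 633. In the 54 of the 633 that were narrower by 1.5-fold or more, the median moves were -582 bp downstream and -59 bp upstream. Edges were those of the widest siAATF peak, so a second siAATF peak was left out and counted as an inward move. The downstream side lost more in 33 of these 54 (61.1%, 46.9 to 74.1), and 41 kept the start.

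**Figure D5:**
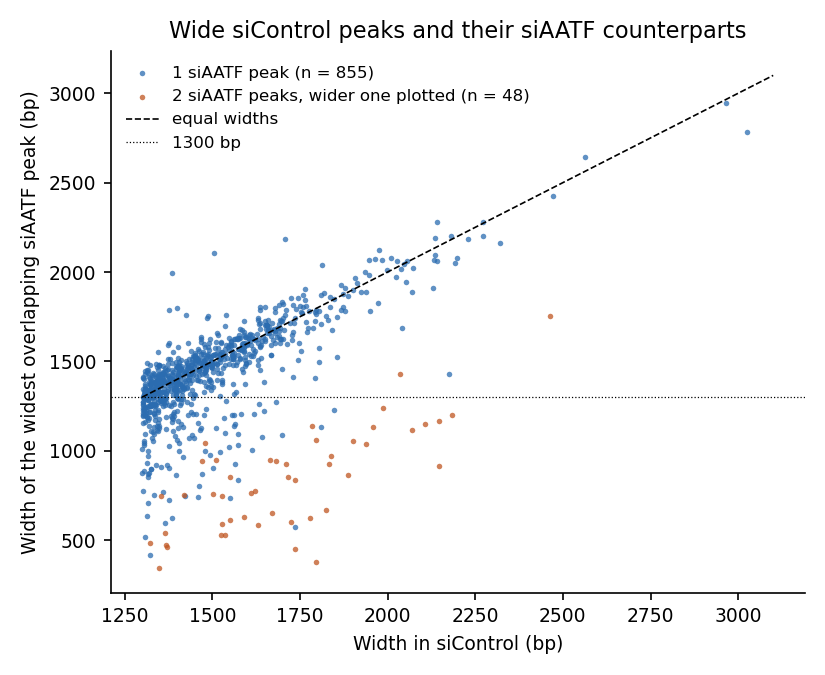
Width of the widest overlapping siAATF peak (y axis, bp) against width in siControl (x axis, bp) for the 903 wide siControl peaks with a siAATF counterpart, coloured by whether 1 (855) or 2 (48) siAATF peaks overlapped, with equal widths dashed and 1300 bp dotted. Most points lie along the line, with 659 at or above 1300 bp, and the peaks covered by 2 siAATF peaks lie below it.

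Of the 903, 855 were overlapped by 1 siAATF peak and 48 by 2. The 48 were 5.31% (3.94 to 6.98) of the 904, against 0.68% of peaks of 1000 to 1299 bp and 0.398% of all siControl peaks. A peak narrower than the gap between 2 siAATF peaks cannot be overlapped by both, so the share depends on the width rule. The gap between the 2 siAATF peaks was a median of 456.5 bp, from 393 to 1010 bp, and 500 bp or less in 32. Joined across gaps of up to 500 bp, 31 of the 48 reached 1300 bp or more. From outer edge to outer edge, the 2 siAATF peaks spanned a median of 1703 bp, and 1300 bp or more in 44 of the 48. These 48 were wider and weaker than the rest, with a median width of 1695 bp and a median −log10 q of 8.48 (6.54 to 11.2), and 7 of them held a core (14.6%, 6.07 to 27.8), against 35.9% (32.7 to 39.2) of those with 1 siAATF peak. An lncRNA start was in 22 of the 48 (45.8%, 31.4 to 60.8), against 27.4% (24.4 to 30.5), with no allowance for their greater width. PIM3 had siAATF peaks of 1756 and 207 bp, the divergent fatty acid desaturase genes FADS1 and FADS2 had 1198 and 544 bp from 2184 bp, and BRWD1, a bromodomain protein, had 1167 and 568 bp from 2146 bp. SAP30L, a subunit related to Sin3 corepressors, had 1149 and 272 bp from 2106 bp.

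The order of the wide peaks by height was closer between the lists than their order by width. Across the 903 pairs, Spearman's rho was 0.97 for −log10 q, 0.87 for fold enrichment and 0.60 for width, given as a description over peaks that share their libraries and, for width, a narrowed range. The median percentile by fold was 40.8 in siControl and 43.7 in siAATF, and that by q 64.5 and 66.4. A change of more than 20 percentile points in fold was found in 34 (3.77%), against 9.96% of all shared siControl peaks. Width held better at a core, where 260 of 314 (82.8%, 78.2 to 86.8) had a siAATF peak of 1300 bp or more and the median difference was 0.5 bp (-11 to 10). Without a core these were 399 of 590 (67.6%, 63.7 to 71.4) and -33 bp (-49 to -23). Wide peaks with a core also had the higher median −log10 q, 53.2 against 12.0, and the part of q in how width held was not tested.

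The 46 wide peaks with no annotated start were a mixed group. In 16 a start lay within 1 kb outside the peak, in 17 the nearest was over 10 kb away, and 17 lay mostly outside genes. A core was found in 16, with up to 4 in the peak near KCNN1, whose −log10 q of 103 was the highest of all wide peaks. Another with 4 cores, at chr12:34488834-34490199, had one of the lowest folds, 2.99. The 6 wide peaks with a GC content under 50% were all in this group, and 7 of the 46 lay within 50 kb of a run of at least 10 kb of unknown bases in GRCh37, against 16 of the 904 and 1.52% of all peaks. Tandem copies were visible in several of them. At chr19:27731842-27733295, 59 bp from such a run, 57 of 60 bases matched those 340 bp further on, shown in a pair without capitals:
First copy, chr19:27732042-27732101: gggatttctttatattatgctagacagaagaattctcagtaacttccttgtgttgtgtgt
Next copy, chr19:27732382-27732441: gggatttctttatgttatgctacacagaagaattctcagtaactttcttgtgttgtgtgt
The same lag of 340 bp gave the best match of the sequence with itself at chr1:121484055-121485488, where 64.7% of bases matched, and at the second widest peak, chr6:58776395-58779359, where 53.4% matched. Their fold enrichments were 6.31, 6.28 and 3.11, their widths in siControl 1454, 1434 and 2965 bp and in siAATF 1518, 1431 and 2948 bp. In the 60-base windows compared at this lag, 50 of 60 bases matched at the chromosome 1 peak. At the chromosome 6 peak 11 of 60 did, so no copy was visible in that window.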

How the data were processed

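NRF-1 ChIPmentation of U251 cells was analysed from 1 deposited peak list per condition. Per the study's methods, Bowtie2 placed the reads on hg19 and MACS2 made the calls inside a Nextflow ATAC-seq pipeline at its defaults. ATAC-seq settings can shift or lengthen reads, which can move peak edges. The sources do not say whether duplicates were pooled. Peak positions were deposited by the authors in bp, and width is the deposited end minus the deposited start, which counts from 0. Positions are printed counting from 1. The fold enrichment, a ratio, and the −log10 p and −log10 q deposited by the authors are means over the peak, and the p and the deposited display score were not used here. The files hold no read counts, so depth was unknown.

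Peaks on chromosomes 1 to 22 and X were kept. Starts, exons and genes were taken from GENCODE 44 lifted to GRCh37, a start being any distinct transcript start inside the peak and a coding start that of a protein-coding transcript of a protein-coding gene. Peaks were linked by an overlap of at least 1 base, the widest siAATF peak being used. Percentiles are within each list, and intervals of medians come from binomial order statistics. Self-match was the share of bases equal to those a fixed lag further on, over lags of 20 to 400 bp. The core search and the overlaps were tested on simulated data. Python 3.11.15, pandas 2.3.3, scipy 1.17.1, pysam 0.24.0 and samtools 1.23.1 were used. Other width limits, a −log10 q minimum, joined peaks, other overlaps and other annotation sets were tried.

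The set of peaks and the 13 gene lists were chosen with earlier results of these data known. The result of 1 list is not reported here. Named peaks were the 10 widest, the 5 highest and lowest by fold, the 5 with most starts, most coding genes, most cores per kb, largest gain and largest loss of width, those without a siAATF peak, the 5 widest over 2 siAATF peaks, the 3 on each side of the limit and the widest 3 of each list. Other list genes were named after their values were seen, as were the peaks in tandem repeats.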

Additional observations from a re-analysis of the deposited data

How the results depend on the processing

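Over 9 results, 31 of 48 alternatives left the value within its interval or within 1.5 times of the count, and none reversed a direction. With a limit of 1200 or 1400 bp the number of wide peaks was 1431 or 570, the median percentile of fold enrichment 45.3 or 37.1 and that of −log10 q 66.9 or 62.2. The share with a siAATF peak of 1300 bp or more was 54.7% or 81.8%, the limit in siAATF being kept. When both lists were first limited to a −log10 q of 5 or more, percentiles within the shortened list were 15.3 for fold and 50.9 for q. Counting starts in the central 700 bp alone gave a coding start in 70.1%, 2 or more coding genes in 6.75% and a median of 2 starts, and transcripts tagged basic also gave 2. The core was in 6.75% when exact and in 24.7% of central windows. Joining siAATF peaks up to 500 bp apart raised the share with a wide counterpart to 76.2%. No paired analysis was possible because each condition had a single list. With no replicates and unknown depth, the part that depth has in width and in the number of calls was not tested.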

Other observations

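Outside chromosomes 1 to 22 and X, 10 further siControl peaks and 9 siAATF peaks spanned 1300 bp or more, among 18014 and 18454 peaks in all.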
